A study of Saccharomyces cerevisiae with 10 samples.

Results

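The large subunit of the mitochondrial ribosome was followed through the yeast strains that each lack 1 of its proteins. Members are the deletion strains whose annotated gene symbol starts with MRPL or is IMG1, IMG2, MNP1, MRP7, MRP20, MRP49 or RML2. The array annotates 41 such genes, and 37 of them held values, out of 4611 measured strains. The other 4, MNP1, MRPL10, MRPL16 and MRPL19, are annotated but listed without a value on any array. The pool held haploid Saccharomyces cerevisiae strains with 1 gene deleted each, and every strain carries a pair of barcode tags in place of its gene. On 4 arrays, DNA of a pool portion given 0.4 mM hydrogen peroxide for 1 h (acute, Cy5) was set against an untreated portion of the same culture (Cy3). On 6 further arrays, a portion given 0.1 mM as pretreatment and then 0.4 mM for 1 h (adapted, Cy5) was set against a portion given a sham treatment and then the same high dose (acute, Cy3). All portions grew for 5 h in fresh medium before harvest, and each array had its own culture.

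The mitochondrial ribosome makes the few proteins that mitochondrial DNA still encodes, nearly all of them core subunits of the respiratory chain and of the ATP synthase. Its large subunit joins amino acids at the peptidyl transferase center and releases the growing chain through an exit tunnel that opens at the inner membrane. Some of its proteins have bacterial relatives and carry the universal (uL) or bacterial (bL) family names, and others are found in mitochondria alone (mL). Yeast cells that cannot translate in mitochondria do not respire, and many such mutants lose their mitochondrial DNA, but they live by fermentation, which is why these strains can be kept in a pool.

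A strain's log ratio is the log of its share of the tag signal in the Cy5 portion over that in the Cy3 portion, read as a natural log. Below 0, a strain took a smaller share of the acute than of the untreated portion, or of the adapted than of the acute portion. Death during the dose and slower growth after it cannot be told apart in these shares. The direction is likely rather than settled. The signs of the deposited ratios change within 1 tag set and were turned to a common direction, whose overall sense follows the order of strains in the study's own fitness list. Both yap1Δ and skn7Δ, strains without well-known regulators of the peroxide response, then lie below 0, with acute means of −1.64 and −1.49 (standard errors 0.13 and 0.14). All arrays had the same dye orientation, and dye effects and treatment effects cannot be told apart.

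Replicate arrays differed widely. Over all strains, pairs of acute arrays correlated between −0.11 and 0.51 and pairs of adapted arrays between −0.28 and 0.60. Within the first tag set alone these correlations went down to −0.44 and −0.66. The tags of a strain correlated between 0.06 and 0.22 on single arrays. Over the 37 members, pairs of acute arrays correlated between 0.16 and 0.40 and pairs of adapted arrays between −0.38 and 0.39. No spot intensity was used, so the signal behind a ratio is unknown, and the number of arrays limits the precision.

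As a group, strains of the large subunit lay below the pool after the acute dose. Their median acute log ratio was −0.32, against −0.01 over all strains, and 32 of 37 members (86.5%) had a mean below 0, as did 54.8% of all strains. With limma at the unadjusted p of 0.005 that the study's methods use, 8 members were called below 0 and 0 above. Over all strains, 2.67% were called below 0 and 0.933% above. At an unadjusted p of 0.05 the members' counts were 16 below and 0 above, against 6.92% and 5.73% of all strains. At a Benjamini-Hochberg adjusted p of 0.05, taken over all strains, no member was called, where 0.0651% of all strains were. The count of 8 fell when single arrays were left out, and so did the share over all strains. It was 3 without acute replicate 3 (1.69% of all strains), and 4 without acute replicate 1 (1.8%) or 4 (1.43%).

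The median over the members was −0.49, −0.14, −0.40 and −0.33 on acute replicates 1 to 4, against −0.01 over all strains on each. All 4 arrays thus put the group below the pool, replicate 2 by the least. On all 4 arrays 14 members lay below 0, which is 37.8% of them, against 10.8% of all strains. Members were uneven in this. A mean of −0.5 or lower was found for 14 strains (37.8% of members), against 4.1% of all strains. It lay between −0.5 and −0.25 for 9 members, between −0.25 and −0.1 for 3, between −0.1 and 0.1 for 8, and above 0.1 for 3. Replicate spread was also wider than usual, with a median SD of 0.32 for the members and 0.22 for all strains over the 4 acute arrays.

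**Figure D1:**
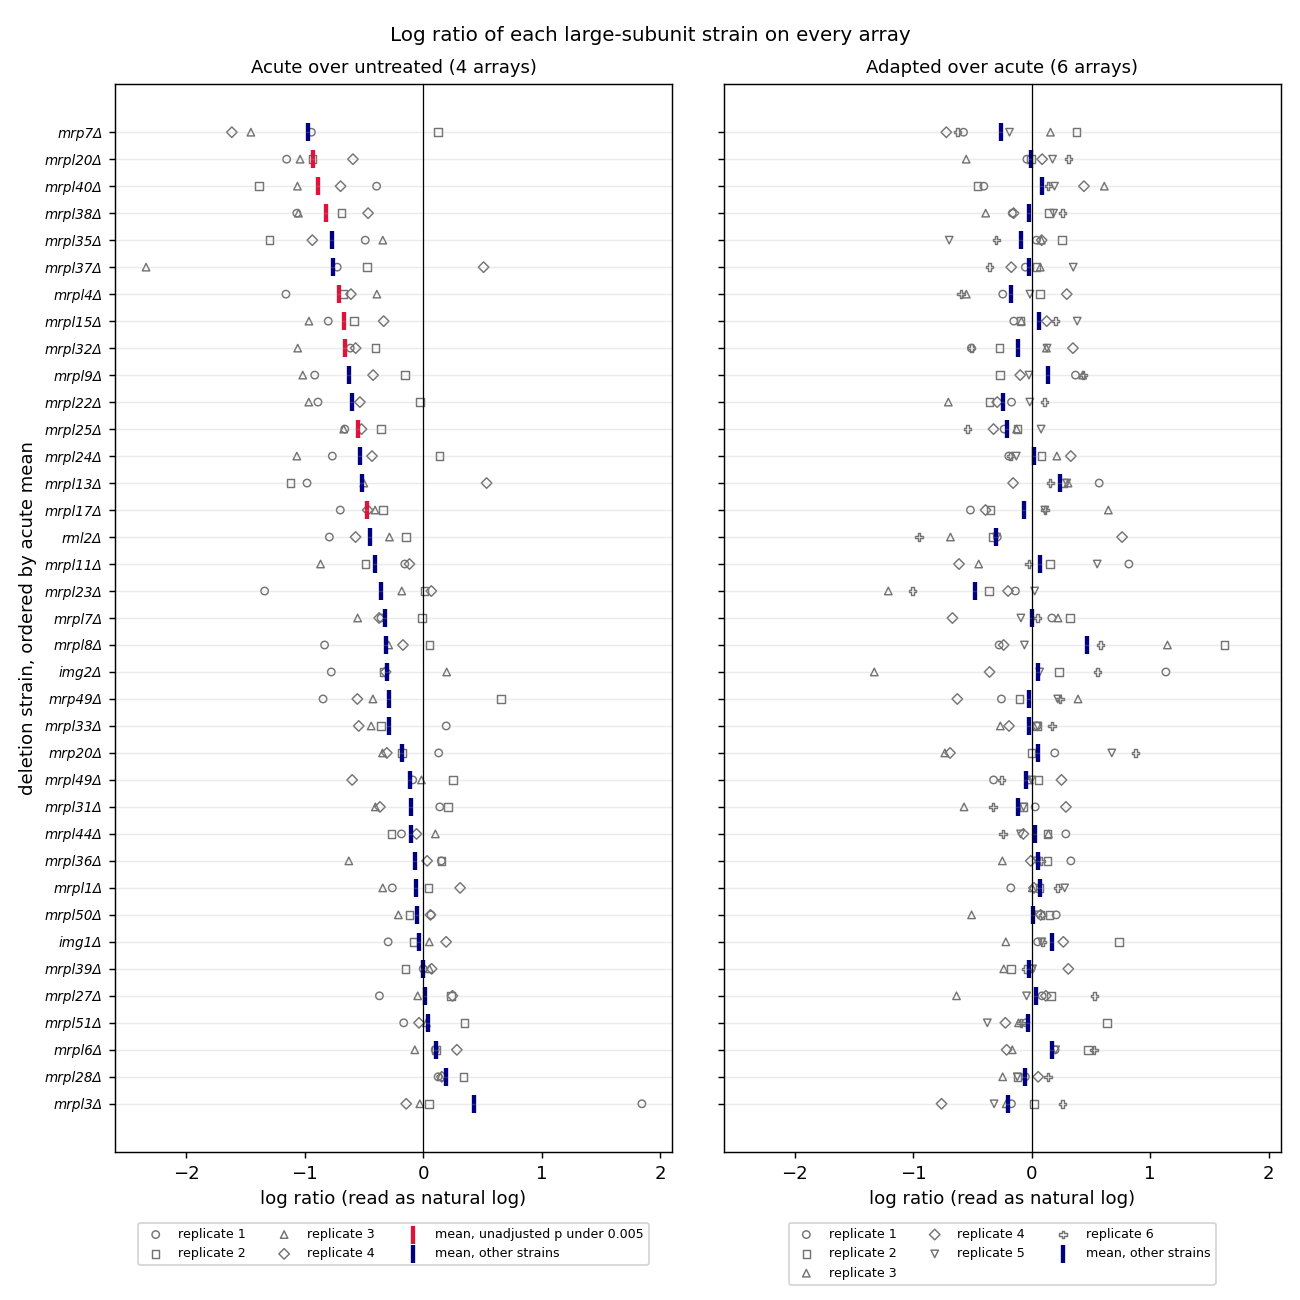
Log ratio of each of the 37 large-subunit deletion strains on every array, acute over untreated at left (4 arrays) and adapted over acute at right (6 arrays), read as natural log. Open marks are single arrays and vertical ticks are means, red where the unadjusted p is under 0.005. The acute means spread from −0.97 to 0.43 with 32 below 0, while the adapted means lie on both sides of 0 and none is red.

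The strain without Mrpl20, a mitochondrion-specific protein of family mL58, gave the firmest acute result. Its log ratios were −1.15, −0.94, −1.04 and −0.59 on acute replicates 1 to 4. Every array put mrpl20Δ far below the pool, and replicate 4 was the mildest. The mean was −0.93 with a standard error of 0.12 (adjusted p = 0.0762). It is the only member that passed the unadjusted threshold whichever acute array was left out.

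The strain without Mrpl38, the uL14 protein that in bacteria lies on the face turned to the small subunit, followed closely. Its values were −1.07, −0.69, −1.05 and −0.46, lowest on replicates 1 and 3 and mildest on replicate 4, as in mrpl20Δ. The mean was −0.82 (standard error 0.13, adjusted p = 0.0851). The call was lost without acute replicate 3.

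Mrpl25, a mitochondrion-specific protein of family mL59, gave a smaller and tighter loss of share when deleted. The values of mrpl25Δ were −0.66, −0.36, −0.67 and −0.52. These arrays lie close together and all are below 0, with a mean of −0.55 (standard error 0.09, adjusted p = 0.0911). Even so, the call was lost without acute replicate 1, 3 or 4. Mrpl17, of family mL46, sits in the central protuberance, the crown of the subunit. The values of mrpl17Δ were −0.70, −0.34, −0.41 and −0.47, with a mean of −0.48 (standard error 0.09, adjusted p = 0.109). No array stood far from the rest, but the call was lost when any 1 of the 4 was left out.

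Mrpl32 is the bL32 protein, which the inner-membrane m-AAA protease must cut before it can join the ribosome. The values of mrpl32Δ were −0.61, −0.40, −1.06 and −0.57. Replicate 3 was the lowest and the other arrays were alike, with a mean of −0.66 (standard error 0.13, adjusted p = 0.104). Leaving out acute replicate 1 or 4 ended the call of mrpl32Δ. The protease itself is made of Yta12 and Afg3. Deletion of YTA12 gave −0.55, −0.52, −1.24 and −0.78, again lowest on replicate 3, with a mean of −0.77 (standard error 0.14, adjusted p = 0.0996). Deletion of AFG3 gave −0.79, −0.47, −0.21 and −0.16, all below 0, with a mean of −0.40 (standard error 0.13, adjusted p = 0.276) that did not pass the threshold.

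A set of 7 members stands around the exit of the tunnel, where the new chain meets the membrane, and 3 of them were called. Their median acute mean was −0.60, against −0.40 for 6 members of the central protuberance (1 called), −0.25 for 4 of the stalks (0 called) and −0.30 for the other 20 (4 called), where 2.67% of all strains were called. Among 4 strains that share would also give 0 calls. The stalks are separate structures: Mrpl1 (uL1) forms the one on the side where tRNA leaves, with a mean of −0.06 for its strain, and Mrpl11 (uL10), Mrpl37 and Mrpl44 belong to the one on the factor-binding side, with means of −0.41, −0.76 and −0.10. These values are descriptions, and no difference between sites was tested.

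Of the exit proteins, Mrpl40 is uL24, and mrpl40Δ had −0.39, −1.39, −1.06 and −0.70. Replicate 2 was the lowest here, the array with the mildest median over the members. The mean was −0.88 (standard error 0.18, adjusted p = 0.112). Mrpl4 is uL29, and mrpl4Δ had −1.16, −0.68, −0.39 and −0.61, with a mean of −0.71 (standard error 0.14, adjusted p = 0.112). Replicate 1 was the lowest, and no array reached 0. Mrpl15, of family mL57, has a fold related to ribonuclease III. The values of mrpl15Δ were −0.80, −0.58, −0.96 and −0.33, with a mean of −0.67 (standard error 0.13, adjusted p = 0.0996). Calls of these strains were lost without acute replicate 2, 3 or 4 for mrpl40Δ and without 2 or 4 for mrpl4Δ. For mrpl15Δ the call was lost without replicate 1, 2 or 3.

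The other exit proteins did not pass the threshold. Mrpl22, the uL22 protein whose loop lines the tunnel, gave −0.89, −0.03, −0.97 and −0.53 when deleted. The mrpl22Δ strain was thus near 0 on replicate 2 and well below 0 on the others, with a mean of −0.60 (standard error 0.17, adjusted p = 0.233). Mrpl13 is mL50, and mrpl13Δ had −0.98, −1.12, −0.50 and 0.54, with a mean of −0.52 (standard error 0.29, adjusted p = 0.616). Its replicate 4 lay on the other side of 0 from the rest.

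Deletion of MRP20, whose uL23 product sits beside uL29 at the exit, gave a mean of −0.17 and was below 0 on 3 of 4 arrays. Mrpl3, of family mL44, is a second protein with the ribonuclease III fold. The values of mrpl3Δ were 1.85, 0.05, −0.03 and −0.14, and its mean of 0.43 (standard error 0.36, adjusted p = 0.791), the highest among members, rests on replicate 1. Without that array the mean was −0.05. Only the first of its tags was measured.

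In the central protuberance, Mrp7 is bL27, whose tail in bacteria reaches toward the peptidyl transferase center. The mrp7Δ strain had the lowest acute mean of all members, −0.97, with values of −0.94, 0.13, −1.45 and −1.61. On replicate 4 it was the lowest of all members, while replicate 2 lay above 0. The standard error was 0.30 and the adjusted p 0.257. Mrpl35 is mL38, and mrpl35Δ had −0.49, −1.30, −0.34 and −0.94, all below 0. Its mean of −0.77 (standard error 0.18, adjusted p = 0.154) missed the threshold with an unadjusted p of 0.00605.

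Mrpl28, of family mL40, lies in the same protuberance, and mrpl28Δ was above 0 on all 4 arrays. It had 0.13, 0.34, 0.15 and 0.16, with a mean of 0.19 (standard error 0.08, adjusted p = 0.442). It was the only member above 0 on every acute array, where 9.15% of all strains were, and its SD of 0.10 was the smallest among members. The strain without Mrpl6, the uL6 protein near the factor-binding side of the subunit, had 0.10, 0.11, −0.07 and 0.28, with a mean of 0.11 (standard error 0.09, adjusted p = 0.801). The arrays of mrpl6Δ thus lay on both sides of 0.

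Another member, chosen after its values were seen, shows how wide the replicates could be. Mrpl37 is mL54, and mrpl37Δ had −0.72, −0.47, −2.34 and 0.51, with an SD of 1.18, the largest among members. Its mean of −0.76 had a standard error of 0.44 (adjusted p = 0.645).

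By family, 22 members with bacterial relatives had a median acute mean of −0.34, with 21 below 0 and 4 called. The 15 mitochondrion-specific members had a median of −0.31, with 11 below 0 and 4 called. Over all strains 54.8% were below 0 and 2.67% called below 0. The members above 0 were MRPL6 of the bacterial kind and, of the mitochondrion-specific kind, MRPL3, MRPL27, MRPL28 and MRPL51.

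The separate tags give a second reading of each strain, taken here before the arrays were set to a common distribution. Both tags were measured for 35 members. In the acute comparison both tag means were below 0 for 23 of them, both above 0 for 2, and of opposite sign for 10. These sign counts were made for the members alone, so no share over all strains stands beside them. The median was −0.41 for the first tag and −0.22 for the second. The tag means of the members correlated with r = 0.24 and rho = 0.36, against 0.40 and 0.33 over the 4475 strains with both tags. The tags of a strain share the DNA sample and the array, so these are descriptions.

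Single strains differed in how far their tags agreed. In mrpl20Δ the tag means were −0.90 and −0.86, and all 8 single readings were below 0. In mrpl25Δ they were −0.51 and −0.54. In mrp7Δ the first tag averaged −1.81 and the second −0.07, the second with 1 reading of 1.45 on replicate 2. In mrpl4Δ the means were −1.27 and −0.11, so that the low strain value came from the first tag. The mrpl9Δ strain, which lacks uL3, a protein next to the peptidyl transferase center, showed the opposite, with 0.01 for the first tag and −1.11 for the second.

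**Figure D2:**
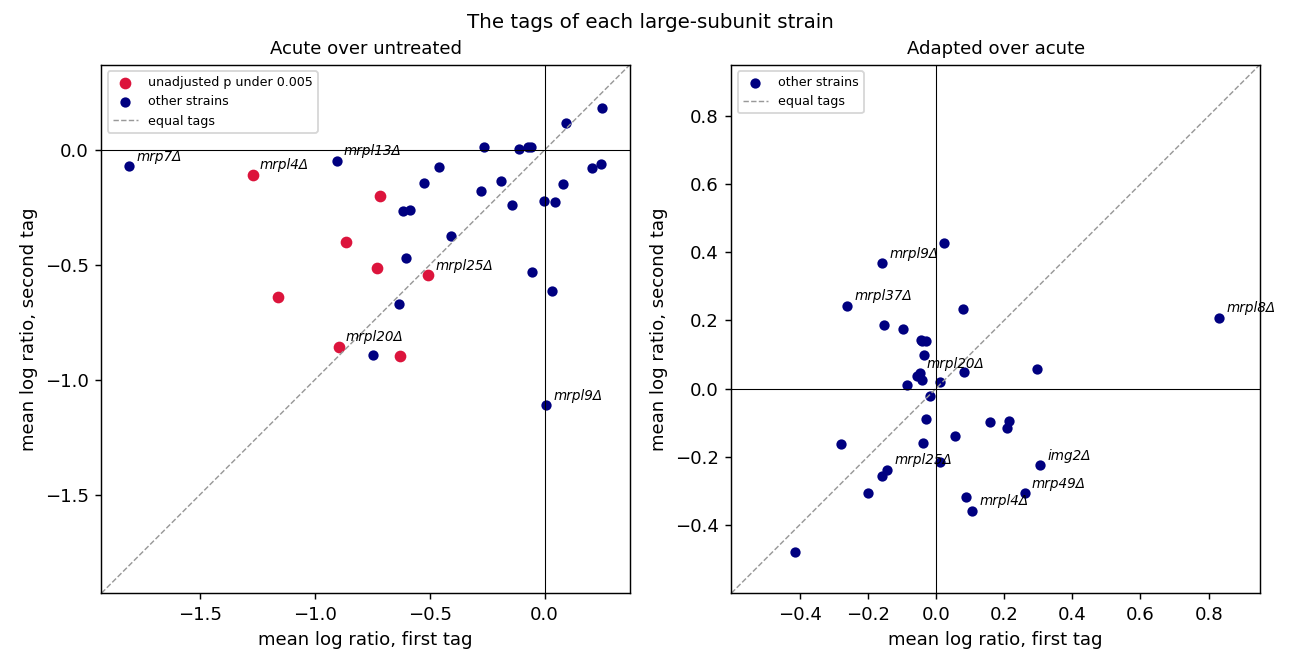
Mean log ratio of the first tag (horizontal) and of the second tag (vertical) for the 35 large-subunit strains with both tags, acute over untreated at left and adapted over acute at right; the dashed line marks equal tags. In the acute panel 23 strains lie below 0 on both tags and 10 have tags of opposite sign. In the adapted panel 21 have tags of opposite sign. These counts were made for the members alone, with no share over all strains.

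The arrays of adapted over acute ask which strains gained or lost share with the pretreatment once both portions had met the high dose. A benefit common to the whole pool does not show in these shares. Members of the large subunit were not set apart on these arrays. Their median was −0.02, against −0.01 over all strains, with 20 below 0 (54.1%) and 17 above, where 54.5% of all strains lay below 0. With limma 0 members were called below 0 and 0 above, where 1.52% and 1.26% of all strains were called. At an unadjusted p of 0.05 there were 2 below and 1 above, where 6.38% and 4.47% of all strains were. At an adjusted p of 0.05, 0 members were called, where 0.0217% of all strains were. A plain test without shared spread called 0 in either direction, and a single spread shared by all strains called 1 in each. Of the 37 means, 23 (62.2%) lay within 0.1 of 0, as did 58.3% of all strains.

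No member lay on the same side of 0 on all 6 adapted arrays, where 3.93% of all strains lay below and 3.43% above on every array. The members' median was −0.05, 0.06, −0.16, −0.10, 0.04 and 0.09 on adapted replicates 1 to 6, so the group changed side from array to array. The median SD over the 6 arrays was 0.31 for members and 0.23 for all strains.

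The lowest adapted mean belonged to mrpl23Δ, which lacks uL13. Its 6 values had a lowest of −1.21, a median of −0.28 and a highest of 0.03. Replicates 3 and 6 were far below the rest, and only replicate 5 was above 0. The mean was −0.48 (standard error 0.17, unadjusted p = 0.0224, adjusted p = 0.334). Both tags had means below 0, −0.41 and −0.48. The rml2Δ strain lacks uL2, which helps to form the peptidyl transferase center. It had a lowest value of −0.95, a median of −0.31 and a highest of 0.76, so that replicate 4 stood apart above 0. Its mean was −0.30 (standard error 0.19, adjusted p = 0.656). Without replicate 4 the mean was −0.52 and passed the unadjusted threshold in limma, and without replicate 6 it was −0.18. For mrp7Δ the lowest value was −0.72, the median −0.38 and the highest 0.38, with a mean of −0.26 (standard error 0.16, adjusted p = 0.61).

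At the other end, mrpl8Δ lacks bL17 and had a lowest value of −0.28, a median of 0.26 and a highest of 1.63. The high values came from replicates 2, 3 and 6, and the other arrays lay below 0. The mean was 0.46 (standard error 0.26, adjusted p = 0.577), and it was 0.24 without replicate 2. For mrpl13Δ the values ran from −0.16 over a median of 0.28 to 0.57, above 0 on 5 of 6 arrays. Its mean of 0.24 had a standard error of 0.09 (unadjusted p = 0.0327, adjusted p = 0.381). For mrpl6Δ the lowest value was −0.21, the median 0.20 and the highest 0.53, with a mean of 0.17 (standard error 0.11, adjusted p = 0.658), which was 0.10 without replicate 6.

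Among the strains lowest after the acute dose, mrp7Δ had the adapted mean of −0.26 given above, while some others lay near 0. For mrpl20Δ the 6 values had a lowest of −0.55, a median of 0.04 and a highest of 0.31, with a mean of −0.004 (standard error 0.11, adjusted p = 0.995). For mrpl38Δ the mean was −0.02 (standard error 0.10, adjusted p = 0.976). Only mrpl25Δ, below 0 on 5 of 6 arrays with a mean of −0.21 (standard error 0.09), had an unadjusted p under 0.05 among the strains called in the acute comparison, at 0.0402 (adjusted p = 0.424).

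**Figure D3:**
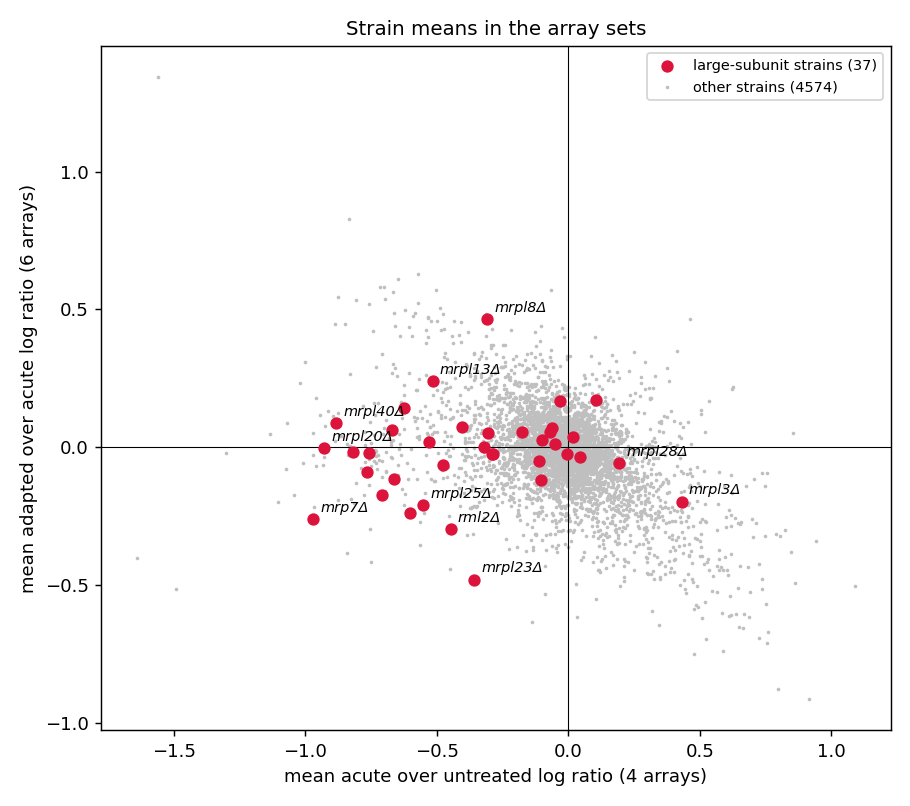
Mean acute over untreated log ratio (horizontal, 4 arrays) against mean adapted over acute log ratio (vertical, 6 arrays) for the 37 large-subunit strains (red) and the other 4574 strains (grey). The large-subunit strains extend to the left, with a median of −0.32 on the horizontal axis, and lie around a median of −0.02 on the vertical axis.

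The adaptive contrast of the study's methods joins both sets of arrays. It takes the log of acute over adapted and subtracts that of acute over untreated, so it equals the negative of the sum of a strain's acute and adapted means. A positive contrast thus means a smaller share of the adapted than of the untreated pool, chained through the acute portions, which came from different cultures in the sets. It uses the same arrays as both comparisons above and is no separate evidence of the acute result. It asks how much of a strain's loss of share, relative to the pool, was still there after the pretreatment. A benefit of pretreatment common to the whole pool does not show in shares.

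Large-subunit strains had a median contrast of 0.31, against 0.02 over all strains. Above 0 were 29 of 37 members (78.4%), as were 56.8% of all strains. With limma, 9 members were called above 0 and 0 below, where 1.54% of all strains were called above and 0.173% below. At an unadjusted p of 0.05 these counts were 15 and 0, where 4.01% and 1.54% of all strains were. At an adjusted p of 0.05, 1 member was called, where 0.347% of all strains were. The count of 9 was 5 without acute replicate 3 (1.26% of all strains) or acute replicate 4 (1.06%), and 5 with no sharing of spread between strains (0.933%).

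The member with an adjusted p under 0.05 was mrpl25Δ, with a contrast of 0.76 (standard error 0.13, adjusted p = 0.0375). It joins a tight acute mean of −0.55 to an adapted mean of −0.21. For mrpl20Δ the contrast was 0.93 (standard error 0.17, adjusted p = 0.0527), and for mrpl38Δ it was 0.84 (standard error 0.17, adjusted p = 0.0854). In both, nearly the whole contrast came from the acute arrays, as the adapted means of −0.004 and −0.02 show. For mrpl4Δ it was 0.88 (standard error 0.20, adjusted p = 0.154). These 4 strains passed the unadjusted threshold whichever array was left out. The acute part of the mrpl4Δ contrast came mainly from the first tag, with acute tag means of −1.27 and −0.11.

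Among the other called strains, mrpl15Δ had a contrast of 0.61 (standard error 0.15, adjusted p = 0.192) and mrpl32Δ one of 0.78 (standard error 0.20, adjusted p = 0.204). The strains called in the contrast but not in the acute comparison were mrpl22Δ, mrpl35Δ and mrp7Δ. For mrpl22Δ, with an adapted mean of −0.24 on top of an acute mean of −0.60, it was 0.84 (standard error 0.20, adjusted p = 0.192). For mrpl35Δ it was 0.85 (standard error 0.22, adjusted p = 0.224). The largest contrast belonged to mrp7Δ, at 1.23 (standard error 0.34, adjusted p = 0.25), and leaving out any of 7 arrays ended its call.

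The strains called in the acute comparison but not in the contrast were mrpl17Δ and mrpl40Δ. For mrpl17Δ the contrast was 0.54 (standard error 0.21, adjusted p = 0.687), with adapted values from −0.52 to 0.65. For mrpl40Δ it was 0.80 (standard error 0.25, adjusted p = 0.401), with adapted values from −0.46 to 0.61. Both strains varied by more than 1 log unit among the adapted arrays. The contrast lay below 0 for 8 members, lowest for mrpl6Δ at −0.28 (standard error 0.16), and none of them passed the threshold.

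**Figure D4:**
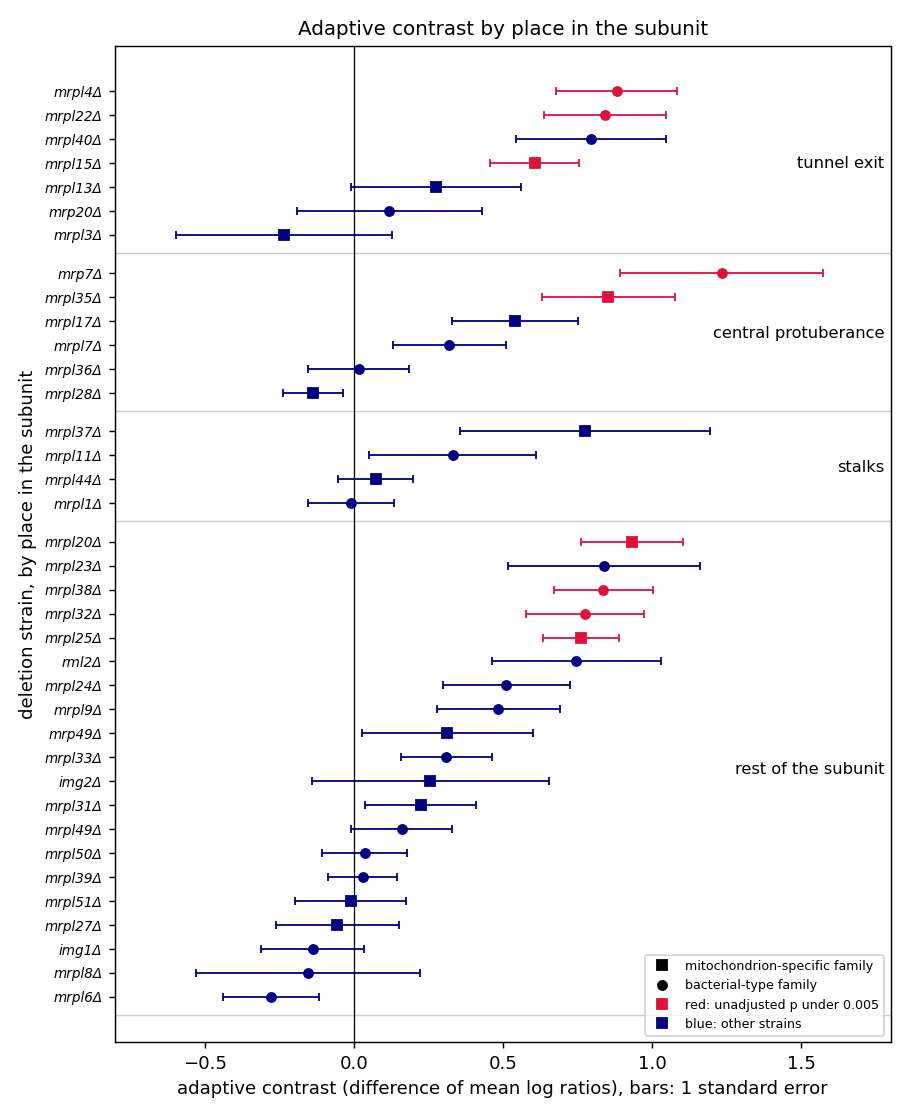
Adaptive contrast of each of the 37 large-subunit strains with its standard error, grouped by place in the subunit (7 at the tunnel exit, 6 in the central protuberance, 4 in the stalks, 20 elsewhere). Squares mark mitochondrion-specific and circles bacterial-type families, and red marks an unadjusted p under 0.005. The called strains are found at the exit (3), in the protuberance (2) and in the rest of the subunit (4), and none in the stalks. Of all strains, 1.54% were called above 0, and among 4 strains that share would also give none. No difference between sites was tested.

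The acute and adapted comparisons were also set against each other, as a description. Over all 4611 strains the acute mean and the adapted over acute mean correlated with r = −0.44 and rho = −0.38. Over the 37 members the values were r = 0.13 and rho = 0.15. The sets of arrays come from separate cultures and share the pool and the tags, and neither correlation was tested. Among the 14 with an acute mean of −0.5 or lower, the adapted mean ranged from −0.26 in mrp7Δ to 0.24 in mrpl13Δ.

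Other strains of mitochondrial translation were read in the same way, from lists drawn up with earlier results known. The small subunit, measured through 28 strains, had a median acute mean of −0.48. Of these strains, 6 (21.4%) were called below 0 and 0 above, against 2.67% and 0.933% of all strains. The median contrast was 0.48, with 5 (17.9%) called above 0, against 1.54% of all strains. The adapted median of the small subunit was −0.003, with 0 called below 0 or above, where 1.52% and 1.26% of all strains were. At an unadjusted p of 0.05 the counts were 1 below and 0 above, where 6.38% and 4.47% of all strains were. The subunits were thus alike in the direction of their medians in the acute comparison and the contrast, and the difference between them was not tested.

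A few large-subunit proteins bear names outside the MRPL scheme. Deletion of MRX14 (bL34) had an acute mean of −0.81 (standard error 0.16, adjusted p = 0.112), deletion of MHR1 (mL67) one of −0.73 (standard error 0.15, adjusted p = 0.118) and deletion of RTC6 (bL36) one of −0.51 (standard error 0.17, adjusted p = 0.309). The first and the second passed the threshold, where 2.67% of all strains were called below 0. All 3 were below 0 on every acute array, as were 10.8% of all strains. Their contrasts were 0.94, 0.79 and 0.63.

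Proteins that mature the large subunit, the m-AAA protease, the GTPases Mtg1 and Mtg2, the methyltransferases Mrm1 and Mrm2 and the helicase Mrh4, were measured through 7 strains. All 7 acute means were below 0, with a median of −0.40, and only YTA12 was called. Of all strains, 54.8% had a mean below 0 and 2.67% were called below 0. Of 8 strains without factors that serve translation itself, the median was −0.03 and 1 was called. This was the strain without Rrf1, the ribosome recycling factor, with −0.95, −0.29, −0.98 and −0.70 and a mean of −0.73 (standard error 0.14, adjusted p = 0.101). The strain without Fmt1, which formylates the initiator tRNA, was also below 0 on all 4 arrays, with −0.86, −1.15, −0.06 and −0.57, and its mean of −0.66 (standard error 0.19, adjusted p = 0.225) missed the threshold. The other 6 had acute means from −0.11 for release factor Mrf1 to 0.08 for Aim23, a mitochondrial initiation factor.

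The large subunit of the cytosolic ribosome gave a different pattern. Its 62 strains had a median acute mean of 0.21, with 2 called above 0 (3.23%) and 0 below. Of all strains, 0.933% were called above 0 and 2.67% below. In the adapted comparison their median was −0.23, with 9 called below 0 (14.5%) and 1 above (1.61%), against 1.52% and 1.26% of all strains. In the contrast the median was 0.01, with 0 called in either direction and 1 in each at an unadjusted p of 0.05. Of all strains, 1.54% were called above 0 and 0.173% below, and at 0.05 these shares were 4.01% and 1.54%. The medians of the cytosolic and the mitochondrial large subunits thus lay on opposite sides of 0 in the acute comparison, a difference that was not tested.

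A deletion can also disturb the gene beside it. The genes next to the members on the chromosome, in RefSeq's yeast annotation, were measured through 47 strains that are not members. Their median acute mean was 0.01. Where 2.67% of all strains were called below 0, 3 of these neighbors were. These were MRX14, next to MRPL1 and itself a large-subunit gene, DSS1, next to MRPL33 and coding for the mitochondrial exoribonuclease, and COX10, next to MRPL40 and needed for the heme of cytochrome oxidase. The MRPL1 deletion had an acute mean of −0.06 and that of MRPL33 one of −0.29, both uncalled. Among members with a measured neighbor, only MRPL40 was called together with it (−0.88, against −0.74 for COX10). Not every neighbor of a called member had a value. Both neighbors of MRPL4, LSM3 and SEC39, had none, nor did NRD1 beside MRPL17, PRP16 beside MRPL20 or PRP38 beside MRPL25.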

How the data were processed

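Barcode tags of a haploid deletion pool were hybridized to 10 two-colour arrays, 4 for the acute and 6 for the adapted protocol, with a separate culture behind each. The authors corrected spot intensities by median and loess with hoptag and deposited log ratios per spot, which were taken to be natural logs. No source used here states the base, so no folds are given. Another base would change the size of every ratio and error but no p. Of 22575 spots, 16850 held values. Signs were kept up to spot 5400 and turned above it, and 3 spots in the gap between the runs of signs were left out. Tags were averaged per strain, and the arrays were quantile normalized within each comparison, as the study's methods describe. Each of 4611 strains (4475 with both tags) was tested in R 4.3.3 with limma 3.58.1 (lmFit, eBayes), two-sided, at an unadjusted p of 0.005, with Benjamini-Hochberg adjustment over all strains beside it. The methods' own test shares variance between strains. A single shared spread, no sharing, each tag alone, other scalings and the loss of each array were tried. The fit was checked on simulated data. Python 3.11.15 (matplotlib 3.10.9, numpy 2.4.6, pandas 2.3.3) made the tables and plots. Values per array are given for members past the threshold in any comparison and for the 3 lowest and 3 highest means in the acute and adapted comparisons, and for others only where this is said. Members, places in the subunit and gene lists were chosen with earlier results of these data known. MRPL3 and MRPL39 were measured through the first tag alone. No barcode or protein sequences were used here.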

Additional observations from a re-analysis of the deposited data

Results flagged for a closer look

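Of 36 sets of values tested for a sample far from the others (18 named strains in each of the acute and adapted comparisons), 2 were flagged, and chance flags about 1 in 20, or 1.8 here. For mrpl3Δ, acute replicate 1 was 1.85 while the other arrays ran from −0.14 to 0.05, a gap of 0.903 of the whole range. For mrpl28Δ, acute replicate 2 was 0.339 while the others ran from 0.127 to 0.158, a gap of 0.854 of the range. The mean of these values was 0.193 with and 0.144 without that array.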

How the results depend on the processing

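The medians of members kept their sign in the acute comparison and in the contrast under every alternative run. Without single arrays they ran from −0.39 to −0.27 and from 0.22 to 0.35, and under other scalings and tag choices from −0.35 to −0.24 and from 0.25 to 0.45. The adapted median crossed 0 without single arrays (−0.04 to 0.01). Counts moved more, as did the shares called over all strains, given in parentheses. The 8 acute calls (2.67%) became 4 with the first tag alone (1.22%), 5 with the second (2.05%), 2 without moderation (1.06%), 14 with a single shared spread (3.97%) and 0 at an adjusted p of 0.05 (0.0651%), and ran from 3 to 8 without single arrays. The 0 adapted calls became 1 below (2.95%) and 1 above 0 (1.3%) with a single shared spread, and 1 below 0, rml2Δ, without adapted replicate 4 (1.11%), with a range of 0 to 1. The 9 calls in the contrast (1.54%) became 4 with the first tag alone (0.911%), 2 with the second (1%), 5 without moderation (0.933%) and 1 at an adjusted p of 0.05 (0.347%), and ran from 5 (without acute replicate 3 or 4) to 11 (without adapted replicate 3). The acute mean of mrpl3Δ ran from −0.047 without acute replicate 1 to 0.63. The causes were not tested. Same-numbered acute and adapted arrays had deviations correlated at 0.339, −0.264, 0.170 and 0.236, so the numbers were not taken as pairs. With the replicate number as a block, the contrast had 5 calls (1.41%) and a median of 0.42. Turning the overall direction, which would only swap every sign, was not rerun.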
